A study of Mus musculus with 12 samples.

Results

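The effect of ADI-PEG20 on gene expression was measured over both chloroquine states of a mouse sarcoma, with 6 tumor libraries that received ADI-PEG20 set against 6 that did not, and chloroquine held as a covariate. These are all 12 libraries of the series, so the comparison takes 12 of 12, and every gene of the deposited table, 16335 in all, was tested. The libraries form 4 groups of 3: ADI-PEG20, ADI-PEG20 plus chloroquine, untreated, and chloroquine. The members were fixed by treatment label and not by any measured value. A gene was said to shift the same way when its mean difference had the same sign for ADI-PEG20 against untreated as for ADI-PEG20 plus chloroquine against chloroquine, and 8453 of the 16335 genes (51.7%) did so. These state differences share no library with each other.

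All tumors came from BVMA01R, a single murine sarcoma line of genotype Myf5-Cre;p53-/-;Ass1-/-, in female C57BL/6J mice, so that the libraries without ADI-PEG20 carried the same deletions. Myf5 drives Cre in muscle precursor cells, and all results rest on 1 line. RNA came from whole frozen tumors depleted of ribosomal RNA, so host cells are part of each library. Doses, schedules and tumor ages are not given in the labels, nor whether each library was a separate animal, and p-values therefore measure only the spread between these samples.

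ADI-PEG20 is a pegylated arginine deiminase that turns circulating arginine into citrulline. Cells that have argininosuccinate synthase, the product of Ass1, can rebuild arginine from citrulline, and cells that lack it depend on arginine brought in by transporters. When an amino acid runs short, uncharged tRNA activates the kinase GCN2, translation of Atf4 increases, and the ATF4 protein binds C/EBP-ATF elements of genes for amino acid transport and synthesis. Chloroquine raises lysosomal pH and blocks the last step of autophagy, another way in which cells regain amino acids.

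The libraries held 15501998 to 28410940 reads in the table, and 1 read was worth 0.0320 to 0.0794 CPM, the unit used here for reads scaled to library size. ADI-PEG20 replicate 1 stood apart: 120 genes had no read there against 7 to 43 in the others, the noncoding RNA Gm26917 took 22.8% of its reads against 5.09% to 16.4%, and its median correlation with the other libraries was 0.920. Untreated replicate 2 was next, with 16.4% of reads from Gm26917. Counts of genes that passed are therefore also given without ADI-PEG20 replicate 1, and without both. Apart from ADI-PEG20 replicate 1, Gm26917 took 5.09% to 6.89% of reads in libraries with ADI-PEG20 and 7.83% to 16.4% in those without. The part of this difference in the CPM values was not tested. The deleted genes still gave reads: Ass1 had 16.4, 12.7 and 8.97 CPM in ADI-PEG20 tumors and 9.97, 11.3 and 17.2 CPM in ADI-PEG20 plus chloroquine tumors, against 6.83, 9.39 and 10.3 CPM in untreated and 11.3, 11.7 and 18.8 CPM in chloroquine tumors. Neither Ass1 (log2 difference 0.19, SE 0.22, limma adjusted p = 0.831) nor Trp53 (0.27, SE 0.17, adjusted p = 0.645) passed the test, and a gene-level value cannot tell a deleted exon from a retained one. All 15 markers of mesenchymal and sarcoma cells were measured, with a mean of 6.28 log2 CPM in libraries with ADI-PEG20 and 6.34 without. Single markers did not stay level: their log2 differences ran from -1.16 to 0.70, with 5 of the 15 above 0. At an unadjusted limma p under 0.05, 3 were higher and 1 lower (5.53% and 4.36% of all genes).

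With ADI-PEG20 over both chloroquine states, 6 of 16335 genes passed an adjusted p of 0.05, or 0.0367% of those tested, 3 higher (0.0184%) and 3 lower (0.0184%). The arginine transporter Slc7a3, the lipase Lpl and the membrane adaptor Ank2 rose, and the matrix protein Tnc, the guidance cue Ntn1 and the G protein subunit Gnao1 fell. The fit was limma on the deposited log2 CPM with Benjamini-Hochberg adjustment over all genes, and all 6 had the same adjusted p of 0.0428. Unless another setting is named, a gene is said to pass by this fit on all 12 libraries. An exact two-sided permutation test within chloroquine states gave p = 0.005 for each of the 6, which is the smallest value its 400 regroupings allow. That p is not adjusted, and these genes had the smallest p of 16335 on the same libraries, so it is a description and no separate support. At an unadjusted p under 0.05, 903 genes (5.53%) were higher and 712 (4.36%) lower, and 1615 (9.89%) in all. These shares are the background for every count at that p in the lists that follow. With each library centred on its own median the split was 740 higher and 931 lower, or 44.3% higher against 55.9% as deposited, so the balance of directions depends on the scaling.

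Slc7a3 encodes a cationic amino acid transporter that carries arginine, lysine and ornithine into cells (ENSMUSG00000031297, chrX:101079210-101086020, GRCm38 as are all gene positions here). Its level was 18.9, 45.5 and 33.0 CPM in ADI-PEG20 tumors and 18.6, 53.6 and 44.0 CPM in ADI-PEG20 plus chloroquine tumors, against 3.48, 6.94 and 7.33 CPM in untreated and 9.24, 5.13 and 13.9 CPM in chloroquine tumors. All 6 libraries with ADI-PEG20 lay above all 6 without it, and the lowest with ADI-PEG20 came from replicate 1 of each group. Slc7a3 rose 4.68-fold (log2 difference 2.23, SE 0.32), by 2.44 without chloroquine and 2.01 with it. The difference between these state effects was -0.42 (SE 0.66, limma adjusted p = 0.889).

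Lpl encodes lipoprotein lipase, which frees fatty acids from circulating triglycerides (ENSMUSG00000015568, chr8:68880491-68907448). It had 62.4, 30.7 and 51.6 CPM in ADI-PEG20 tumors and 46.8, 41.9 and 31.6 CPM in ADI-PEG20 plus chloroquine tumors, against 17.7, 12.2 and 25.2 CPM in untreated and 11.6, 9.23 and 19.2 CPM in chloroquine tumors. Again no library with ADI-PEG20 fell into the range of those without. Lpl rose 2.85-fold (log2 difference 1.51, SE 0.23), with 1.39 without and 1.63 with chloroquine. Adipocytes and macrophages are known to make this enzyme: the summed level of 8 measured adipocyte markers was 33.6 to 336 CPM in libraries with ADI-PEG20 and 34.4 to 52.2 CPM without, none of them at 0 reads. That of 19 macrophage markers was 1663 to 2432 CPM with ADI-PEG20 and 1255 to 1616 CPM without. Their part in the Lpl result was not tested. In a whole tumor, here and in all later results, more cells of a type and more RNA per cell cannot be told apart.

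Ank2 encodes ankyrin B, which ties membrane channels and transporters to the spectrin skeleton (ENSMUSG00000032826, chr3:126921612-127499350). Its 6 libraries with ADI-PEG20 had a lowest, median and highest level of 89.5, 93.8 and 115 CPM, against 53.3, 66.9 and 72.6 CPM without. The increase was small and tight: 1.52-fold (log2 difference 0.60, SE 0.094), 0.66 without chloroquine and 0.55 with it.

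**Figure D1:**
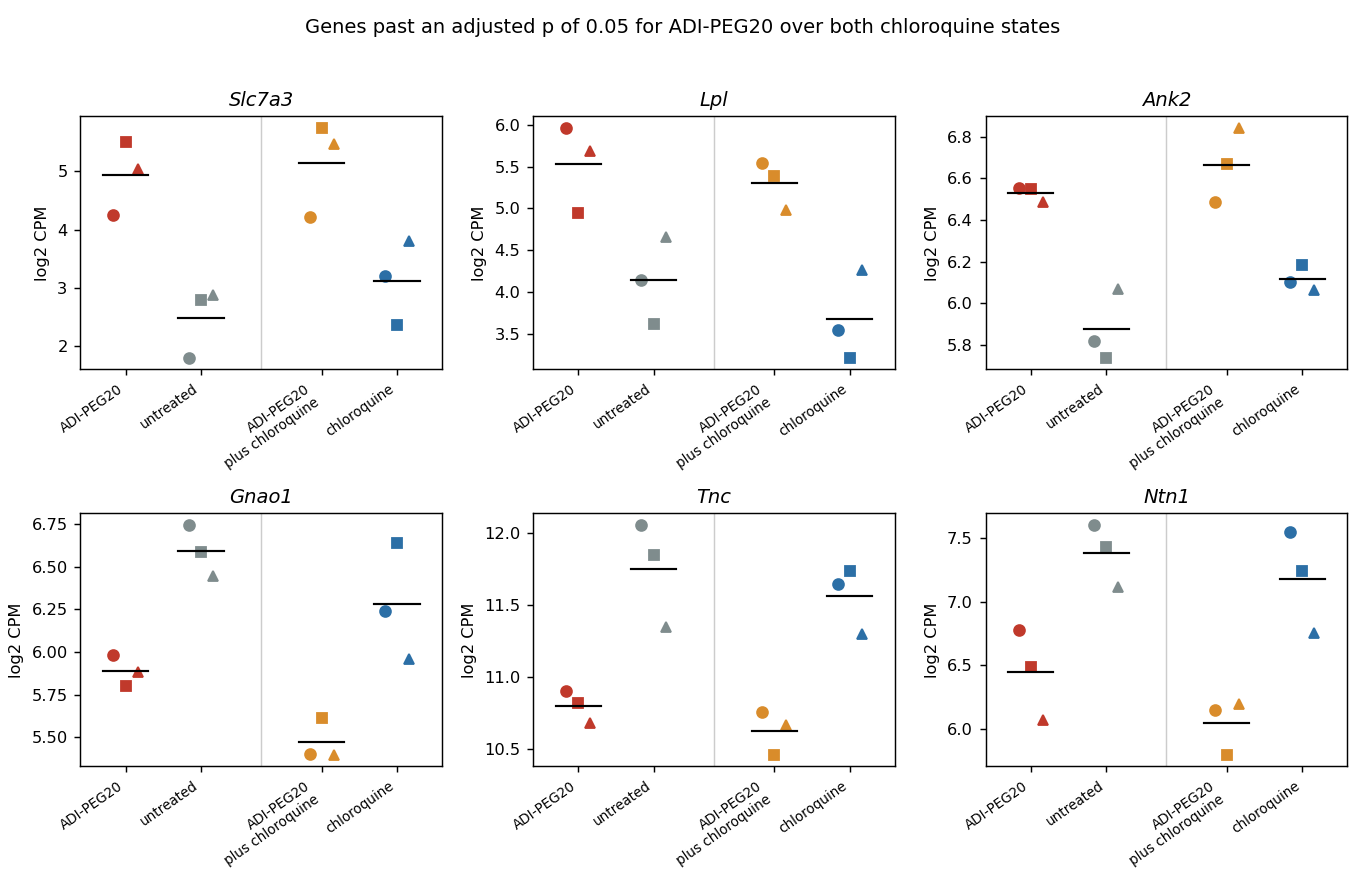
Log2 CPM of the 6 genes past an adjusted p of 0.05, one panel each; circles, squares and triangles are replicates 1, 2 and 3, horizontal bars are means of 3 libraries, and each ADI-PEG20 group stands left of its own control. Slc7a3, Lpl, Ank2 and Tnc separate all 6 libraries with ADI-PEG20 from the 6 without, while Ntn1 and Gnao1 overlap by a single pair of libraries.

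Tnc, tenascin C, is a large matrix glycoprotein of wounds, tendons and tumor stroma (ENSMUSG00000028364, chr4:63959785-64047015). It was abundant, at 1916, 1804 and 1636 CPM in ADI-PEG20 tumors and 1728, 1406 and 1625 CPM in ADI-PEG20 plus chloroquine tumors, against 4262, 3685 and 2600.5 CPM in untreated and 3211, 3408 and 2516 CPM in chloroquine tumors. The highest level with ADI-PEG20 stayed under the lowest without it. Tnc fell by a log2 difference of -0.94 (SE 0.14), -0.95 without chloroquine and -0.93 with it. These state effects differed by 0.017 (SE 0.29).

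Ntn1, netrin 1, is a secreted guidance cue for axons and vessels (ENSMUSG00000020902, chr11:68209364-68400823). It had 109.6, 89.8 and 67.0 CPM in ADI-PEG20 tumors and 70.7, 55.5 and 73.1 CPM in ADI-PEG20 plus chloroquine tumors, against 194, 172 and 139 CPM in untreated and 187, 151 and 108 CPM in chloroquine tumors. The groups overlapped only where ADI-PEG20 replicate 1 reached above chloroquine replicate 3. Ntn1 fell by a log2 difference of -1.04 (SE 0.16), -0.94 without and -1.14 with chloroquine.

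Gnao1 encodes the alpha subunit of the G protein Go (ENSMUSG00000031748, chr8:93809966-93969388). Libraries with ADI-PEG20 had a lowest, median and highest level of 42.2, 52.4 and 63.1 CPM, against 62.3, 91.4 and 107 CPM without, and overlapped again only at these same 2 libraries. Gnao1 fell by a log2 difference of -0.75 (SE 0.12), -0.70 without and -0.81 with chloroquine. The 21 skeletal muscle markers, described further on, summed to 442 to 8894 CPM with ADI-PEG20 and 810.2 to 6649 CPM without, with the highest list mean in ADI-PEG20 replicate 1, where Tnc, Ntn1 and Gnao1 were each the highest of the 6 libraries with ADI-PEG20. The part of muscle RNA in these 3 results was not tested.

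The number of genes that passed changed when single libraries were left out, and the directions of these 6 did not. Without ADI-PEG20 replicate 3, replicate 2 or 3 of ADI-PEG20 plus chloroquine, untreated replicate 1, or chloroquine replicate 1 or 2, none of the 6 passed, with adjusted p up to 0.182, and of the 6 only Lpl passed without ADI-PEG20 replicate 2 and only Slc7a3 without ADI-PEG20 plus chloroquine replicate 1. Without ADI-PEG20 replicate 1 all 6 passed and 70 genes did so in all (0.429%), 26 higher (0.159%) and 44 lower (0.269%). Leaving out untreated replicate 2 as well gave 211 genes (1.29%), 73 higher (0.447%) and 138 lower (0.845%). With 4 group means in place of the covariate none passed, at an adjusted p of 0.0655 for all 6. Gnao1 did not pass without the chloroquine term, Ank2 with median-centred libraries or without chloroquine replicate 3, and Tnc with quantile normalization. In all 23 alternative settings each of the 6 kept its direction.

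Arginine transport beyond Slc7a3 was followed over 10 measured cationic amino acid transporters and their partners. None but Slc7a3 passed. Their median difference was 0.19 with 9 of 10 above 0, against a median of -0.0038 with 8046 of 16335 above 0 over all genes, and 3 had an unadjusted p under 0.05 on the higher side. Slc7a1, the widely expressed arginine transporter, averaged 107 ± 13.1 CPM with ADI-PEG20 and 86.2 ± 11.2 CPM without (SD, n = 6 each), a log2 difference of 0.32 (SE 0.10, limma adjusted p = 0.321). Slc7a2, a transporter used by macrophages and liver, averaged 93.2 ± 29.6 CPM with ADI-PEG20 and 60.2 ± 15.3 CPM without, a difference of 0.60 (SE 0.21, adjusted p = 0.347). Per state these were 0.33 and 0.30 for Slc7a1 and 0.61 and 0.59 for Slc7a2, without and with chloroquine. Slc7a7, a light chain that exports cationic amino acids, differed by 0.32 (SE 0.15), and Slc7a4 was the 1 member below 0 (-0.29, SE 0.26). Among 14 measured enzymes of arginine and the urea cycle, the median difference was 0.11, and Pycr1, an enzyme of proline synthesis, was the 1 member with an unadjusted p under 0.05 (0.59, SE 0.19).

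Of 16 measured neutral and anionic amino acid transporters, 12 had a difference above 0 and none passed. With all 12 libraries, quality weights called Slc7a11 and Slc6a9 as higher and Slc43a1 as lower, and the replicate number as a block called Slc7a11. The weights came from the same libraries, so the calls made with them are no separate support. Of all 16335 genes, 1.73% were called with the weights and 0.227% with the block. Slc7a11, the cystine carrier that feeds glutathione synthesis, had 7.86, 18.8 and 29.4 CPM in ADI-PEG20 tumors and 18.1, 26.2 and 34.2 CPM in ADI-PEG20 plus chloroquine tumors, against 5.75, 8.53 and 13.1 CPM in untreated and 9.72, 10.8 and 12.1 CPM in chloroquine tumors. Only ADI-PEG20 replicate 1 fell into the range of the libraries without ADI-PEG20. The difference was 1.07 (SE 0.29, limma adjusted p = 0.233), and 1.32 (SE 0.22, adjusted p = 0.0322) without that library. That library was the lowest with ADI-PEG20, so the larger difference follows from leaving it out and is no added support. Slc6a9, the glycine transporter GlyT1, averaged 23.4 ± 5.18 CPM with ADI-PEG20 and 14.1 ± 3.40 CPM without (difference 0.74, SE 0.16, adjusted p = 0.135). Slc1a5, which carries glutamine, differed by 0.54 (SE 0.16). Slc43a1, a carrier of branched-chain amino acids, lay on the other side at -0.99 (SE 0.33) and passed as lower without ADI-PEG20 replicate 1 (-1.32, adjusted p = 0.0306). Here too that library ran most against the difference, at 10.2 CPM against 2.37 to 3.47 CPM in the others with ADI-PEG20.

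Target genes of ATF4 lay mostly on the higher side. Of 27 measured enzymes, tRNA synthetases and other targets, 21 had a difference above 0, 18 of them in both chloroquine states (4236 of 16335 over all genes), and 11 had an unadjusted p under 0.05, all higher. None passed in this fit, and the median was 0.17. Without ADI-PEG20 replicate 1, where 0.429% of all genes passed, 5 of the 27 passed as higher: Cth, Asns, Psph, Psat1 and Phgdh. There 22 of the 27 lay above 0, and 23 without untreated replicate 2 as well. ADI-PEG20 replicate 1 had the lowest mean of this list with ADI-PEG20 (5.84 log2 CPM, next 6.04). The 5 passes without it are therefore no added support. With all 12 libraries, quality weights on the libraries called 7 of the 27 as higher, and the replicate number as a block called Cth. The weights were estimated from these same libraries, so the calls made with them are no separate support. Over all 16335 genes the weights called 127 as higher and 156 as lower (1.73% in all). The block called 25 and 12 (0.227%).

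Cth makes cysteine from cystathionine. Its level was 6.83, 22 and 26.6 CPM in ADI-PEG20 tumors and 14.2, 42.9 and 31.3 CPM in ADI-PEG20 plus chloroquine tumors, against 3.28, 3.19 and 6.12 CPM in untreated and 4.43, 4.85 and 9.35 CPM in chloroquine tumors. ADI-PEG20 replicate 1 alone fell into the range without ADI-PEG20. The difference was 2.08 (SE 0.36, limma adjusted p = 0.0650), 1.98 without and 2.18 with chloroquine, and 2.36 (SE 0.30, adjusted p = 0.0150) without that library. As the library left out was the lowest with ADI-PEG20, the larger difference is no added support. Phgdh, Psat1 and Psph, the 3 steps that make serine from a glycolytic intermediate, differed by 0.49 (SE 0.14), 0.50 (SE 0.13) and 0.76 (SE 0.18). Psph averaged 27.0 ± 7.04 CPM with ADI-PEG20 and 15.6 ± 2.40 CPM without (SD, n = 6 each).

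Asns, which makes asparagine, differed by 0.65 (SE 0.19), 0.49 without and 0.82 with chloroquine. Without ADI-PEG20 replicate 1 it differed by 0.83 (limma adjusted p = 0.0302), which for the reason given for this list is no added support. Pck2, the mitochondrial phosphoenolpyruvate carboxykinase, had 59.6, 62.9 and 59.7 CPM in ADI-PEG20 tumors and 59.0, 79.3 and 90.1 CPM in ADI-PEG20 plus chloroquine tumors, against 34.9, 49.5 and 42.7 CPM in untreated and 55.7, 42.1 and 49.6 CPM in chloroquine tumors. Pck2 was the 1 member of this group whose 6 libraries with ADI-PEG20 all lay above the 6 without (difference 0.58, SE 0.13, adjusted p = 0.142). Aldh1l2 and Mthfd2, enzymes of mitochondrial folate metabolism, differed by 0.89 (SE 0.20) and 0.48 (SE 0.14). On the lower side lay 6 members, the tRNA synthetase genes Mars, Iars, Aars and Cars among them, with Fgf21 lowest at -0.40 (SE 0.44).

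Among 18 regulators of this pathway, Atf4 itself did not stand out, at 245 CPM with ADI-PEG20 and 235 CPM without (difference 0.053, SE 0.11, of either sign depending on the library left out). ATF4 is known to be controlled mainly at translation, which RNA levels do not show. Trib3, a pseudokinase that feeds back on ATF4, had 22.5, 20.9 and 37.4 CPM in ADI-PEG20 tumors and 20.1, 46.2 and 33.5 CPM in ADI-PEG20 plus chloroquine tumors, against 3.08, 15.7 and 11.9 CPM in untreated and 14.6, 18.9 and 18 CPM in chloroquine tumors. The groups did not overlap, and untreated replicate 1 was far below the rest (difference 1.26, SE 0.35, limma adjusted p = 0.242). Sesn2, a leucine sensor that holds back mTORC1, differed by 0.55 (SE 0.16) and Chac1, which degrades glutathione, by 0.52 (SE 0.22). In all, 12 of 18 regulators lay above 0. At an unadjusted p under 0.05, 3 of the 18 (16.7%) were higher, against 5.53% of all genes higher and 9.89% in either direction.

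**Figure D2:**
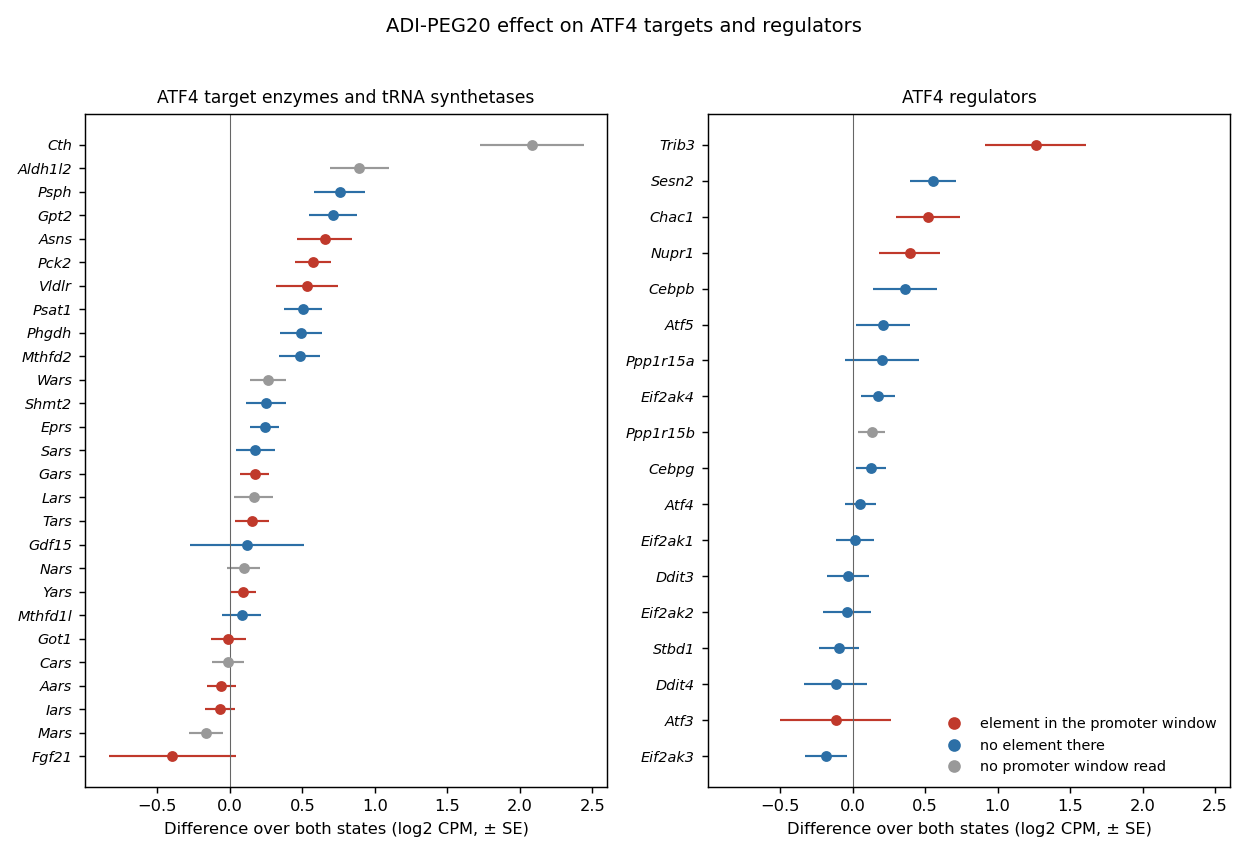
Log2 difference with ADI-PEG20 over both chloroquine states for 27 ATF4 target genes (left) and 18 regulators (right); points are the fitted differences, bars 1 SE, and red points have a C/EBP-ATF element in the promoter window, blue ones none there, and grey ones no window read. Cth at 2.08 and Trib3 at 1.26 lie farthest to the right, and points with and without the element are mixed.

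ATF4 acts through the C/EBP-ATF element, so promoters were searched on both strands for TGATGNAA, from 250 bases before to 50 bases after each annotated start (RefSeq sequences, GRCm38.p6). Of the 16335 genes tested, 11296 had a promoter in the table and 314 of them (2.78%) held the element. It stood in 10 of the 20 ATF4 target genes with a promoter there (50%) and in 4 of 17 regulators. Among all genes with the element the median difference was 0.058 and 8.92% were higher at an unadjusted p under 0.05, against 5.65% of the genes without it. Within the ATF4 targets the order was the other way round: 3 of 10 with the element and 6 of 10 without it were higher at that p. A match is a description of letters and not a shown binding site.

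Shown here are the windows of 3 genes of this pathway with a difference above 0 that did not pass (Trib3, Pck2 and Slc7a11), then those of Avil and of 1 of the 4 listed starts of Ank2, from the genes with the smallest p on the higher side. Each runs 5′ to 3′ on the gene's own strand, with the element in capitals on whichever strand it was found. Counting the start as 0, the element began 14 bases after the start in Trib3, and 103, 66, 17 and 65 bases before it in Pck2, Slc7a11, Avil and Ank2. Slc7a11 held 2 matches, the second on the opposite strand.
Trib3 (chr2:152344011-152344310, minus strand): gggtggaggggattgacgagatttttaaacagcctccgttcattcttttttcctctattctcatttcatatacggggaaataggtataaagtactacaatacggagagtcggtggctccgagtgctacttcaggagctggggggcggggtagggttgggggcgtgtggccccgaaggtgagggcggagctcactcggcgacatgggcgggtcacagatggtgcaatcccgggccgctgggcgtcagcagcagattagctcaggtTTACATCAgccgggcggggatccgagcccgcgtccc
Pck2 (chr14:55540016-55540315, plus strand): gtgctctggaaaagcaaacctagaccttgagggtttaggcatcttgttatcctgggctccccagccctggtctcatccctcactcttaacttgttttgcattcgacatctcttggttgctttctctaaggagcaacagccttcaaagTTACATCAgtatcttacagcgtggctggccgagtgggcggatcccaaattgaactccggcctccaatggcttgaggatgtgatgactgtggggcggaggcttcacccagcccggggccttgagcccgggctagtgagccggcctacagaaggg
Slc7a11 (chr3:50443564-50443863, minus strand): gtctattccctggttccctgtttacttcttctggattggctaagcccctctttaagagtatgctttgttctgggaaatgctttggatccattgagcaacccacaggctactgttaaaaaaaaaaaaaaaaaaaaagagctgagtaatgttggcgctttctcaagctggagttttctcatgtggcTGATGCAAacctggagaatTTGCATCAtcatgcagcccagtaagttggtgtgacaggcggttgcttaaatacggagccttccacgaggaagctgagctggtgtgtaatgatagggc
Avil (chr10:127000459-127000758, plus strand): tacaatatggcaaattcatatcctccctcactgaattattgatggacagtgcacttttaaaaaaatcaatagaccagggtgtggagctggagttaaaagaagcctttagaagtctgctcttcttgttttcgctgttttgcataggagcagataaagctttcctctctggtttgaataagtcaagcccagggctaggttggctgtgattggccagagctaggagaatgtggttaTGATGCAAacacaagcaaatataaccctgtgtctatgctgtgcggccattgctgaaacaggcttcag
Ank2 (chr3:127409009-127409308, minus strand): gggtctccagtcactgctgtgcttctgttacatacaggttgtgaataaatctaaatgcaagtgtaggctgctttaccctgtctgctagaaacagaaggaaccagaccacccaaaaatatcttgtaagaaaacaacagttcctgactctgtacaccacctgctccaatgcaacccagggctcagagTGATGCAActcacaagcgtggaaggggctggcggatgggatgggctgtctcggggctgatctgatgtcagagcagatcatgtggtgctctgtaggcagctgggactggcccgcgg

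Avil, advillin, bundles actin filaments and belongs to the gelsolin family. It had 9.53, 12.8 and 8.45 CPM in ADI-PEG20 tumors and 3.85, 16.2 and 5.73 CPM in ADI-PEG20 plus chloroquine tumors, against 2.68, 1.29 and 2.04 CPM in untreated and 1.98, 2.94 and 2.55 CPM in chloroquine tumors. The groups did not overlap (difference 1.95, SE 0.33, limma adjusted p = 0.0650). The lowest level with ADI-PEG20 was in ADI-PEG20 plus chloroquine replicate 1, as it was for Slc7a3. The element did not appear in the windows of Tnc or Gnao1. Of the 15 genes with the smallest p on the higher side, 9 had a window and 2 of these (22.2%) held the element. On the lower side 8 of 15 had a window and 0 held it. Most rising genes with a window therefore lacked it too.

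Several genes just outside the threshold had differences in the same range as those inside it. Tinagl1, a secreted matricellular protein, averaged 48.3 ± 8.77 CPM with ADI-PEG20 and 18.4 ± 8.37 CPM without (difference 1.49, SE 0.25, limma adjusted p = 0.0650). Pmp22, a membrane protein of myelin and other tissues, had a lowest, median and highest level of 38.9, 57.0 and 67.0 CPM with ADI-PEG20, against 29.0, 33.3 and 36.5 CPM without (difference 0.75, SE 0.13, adjusted p = 0.0650). Col10a1, the collagen of growth plate cartilage, averaged 17.5 ± 12.2 CPM with ADI-PEG20 and 3.33 ± 1.31 CPM without (difference 2.19, SE 0.42). In each of these 3 all libraries with ADI-PEG20 lay above all those without. On the lower side Lpin3, a phosphatidate phosphatase of triglyceride synthesis, averaged 31.6 ± 6.75 CPM with ADI-PEG20 and 54.7 ± 5.98 CPM without (difference -0.81, SE 0.13, adjusted p = 0.0650), with no overlap. Sytl2, a carrier of secretory vesicles, averaged 18.4 ± 7.60 CPM with ADI-PEG20 and 46.4 ± 10.4 CPM without (difference -1.40, SE 0.24, adjusted p = 0.0707).

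Among the 15 genes with the smallest p on the higher side were also Abcg3, an ABC transporter, and Fam129a, a stress-induced cytoplasmic protein. Abcg3 averaged 9.91 ± 2.61 CPM with ADI-PEG20 and 4.54 ± 0.756 CPM without (difference 1.10, SE 0.20, limma adjusted p = 0.0827), and Fam129a 66.5 ± 8.36 CPM with ADI-PEG20 and 35 ± 12.1 CPM without (0.98, SE 0.18). Ms4a6d, a membrane protein of myeloid cells, averaged 23.6 ± 6.51 CPM with ADI-PEG20 and 12.9 ± 2.09 CPM without (0.85, SE 0.16). Among the 15 on the lower side, Actg2, an actin of smooth muscle, averaged 54.6 ± 23.8 CPM with ADI-PEG20 and 159 ± 73.4 CPM without (-1.52, SE 0.32). Tmsb10, which binds actin monomers, averaged 271 ± 40.6 CPM with ADI-PEG20 and 479.9 ± 99.6 CPM without (-0.81, SE 0.16), and Pcolce2, which speeds the trimming of procollagen, 10.7 ± 3.20 CPM with ADI-PEG20 and 21.0 ± 7.42 CPM without (-0.94, SE 0.20). Nxn, an oxidoreductase of the thioredoxin family, and Adgrl3, an adhesion receptor of the latrophilin family, differed by -0.52 (SE 0.11) and -0.54 (SE 0.11). Igsf5, Loxhd1 and Gm3788 were also among these 15, at -1.16, -1.70 and -0.88. Adjusted p among these was between 0.0827 and 0.143.

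Over all genes, 72 had 6 libraries with ADI-PEG20 all above the 6 without (0.441%) and 40 had them all below (0.245%), 112 in all (0.686%). The higher set held Krt14, a keratin of the basal epidermis, at 32.5, 22 and 24.6 CPM in ADI-PEG20 tumors and 52.4, 38.5 and 40.3 CPM in ADI-PEG20 plus chloroquine tumors, against 3.28, 3.93 and 14.7 CPM in untreated and 18.2, 3.78 and 18.6 CPM in chloroquine tumors. The 12 keratinocyte markers measured summed to 60.7 to 140.3 CPM with ADI-PEG20 and 19.5 to 94.4 CPM without, with 6 of them at 0 reads in some library. Krt14 was the 1 marker of these with an unadjusted p under 0.05 (2.08, SE 0.41, limma adjusted p = 0.105).

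Macrophage genes lay on the higher side throughout. All 19 measured markers of macrophages and monocytes had a difference above 0, 17 of them in both chloroquine states, and 15 had an unadjusted p under 0.05. The median was 0.52, 0.57 without chloroquine and 0.54 with it. The mean of the list was 5.90, 5.73 and 5.94 log2 CPM in ADI-PEG20 tumors and 6.18, 5.85 and 6.20 in ADI-PEG20 plus chloroquine tumors, against 5.18, 5.44 and 5.44 in untreated and 5.22, 5.49 and 5.67 in chloroquine tumors. No library with ADI-PEG20 fell into the range of those without. No member passed in the fit over both states, and Fcgr3 and C1qc passed as higher without ADI-PEG20 replicate 1, where 0.429% of all genes passed. Among libraries with ADI-PEG20, that one was the lowest for Fcgr3 and the highest for C1qc. All 19 also lay above 0 without that library and without untreated replicate 2 as well. With all 12 libraries, quality weights called 6 of the 19 as higher (1.73% of all genes were called there). Those weights were estimated from the same libraries and give no separate support. The replicate number as a block called Csf1r (0.227% of all genes).

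C1qc, 1 of 3 chains of complement C1q and made by macrophages, had 396, 253 and 323 CPM in ADI-PEG20 tumors and 368, 282 and 348 CPM in ADI-PEG20 plus chloroquine tumors, against 178, 223 and 209 CPM in untreated and 192, 206 and 239 CPM in chloroquine tumors. The ranges did not meet (difference 0.65, SE 0.12, limma adjusted p = 0.102). Fcgr3, an activating receptor for IgG, averaged 63.3 ± 6.84 CPM with ADI-PEG20 and 41.1 ± 6.90 CPM without (difference 0.63, SE 0.13, adjusted p = 0.107), likewise with no overlap. The adaptor Tyrobp, which signals for many myeloid receptors, averaged 37.2 ± 5.02 CPM with ADI-PEG20 and 23.4 ± 3.19 CPM without (0.67, SE 0.12, adjusted p = 0.102). Mrc1, the mannose receptor, averaged 149 ± 38.0 CPM with ADI-PEG20 and 76.3 ± 23.8 CPM without, with 0.64 without and 1.31 with chloroquine.

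Of 16 measured scavenger and lectin receptors 15 had a difference above 0, 10 of them with an unadjusted p under 0.05, and the median was 0.84. Clec4a2 averaged 10.4 ± 2.51 CPM with ADI-PEG20 and 4.66 ± 1.75 CPM without (difference 1.2, SE 0.26). Clec10a and Mgl2, galactose-type lectins of macrophages and dendritic cells, differed by 1.58 (SE 0.47) and 1.56 (SE 0.50). This list shares Mrc1, Cd163 and Msr1 with the macrophage markers and is not separate from them.

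Growth factors, chemokines and receptors of these cells lay on the same side. Of 19 genes of the CSF1 axis and monocyte chemokines, 17 were above 0 and 12 had an unadjusted p under 0.05, all higher, with a median of 0.61; Csf1r and Ccr2 are on the macrophage list too. Csf1, the growth factor of macrophages, had 229, 224 and 192 CPM in ADI-PEG20 tumors and 196, 256 and 213 CPM in ADI-PEG20 plus chloroquine tumors, against 124, 124 and 131 CPM in untreated and 131, 159 and 198 CPM in chloroquine tumors. A single chloroquine library, replicate 3, reached into the range with ADI-PEG20 (difference 0.61, SE 0.12, limma adjusted p = 0.102). Its receptor Csf1r averaged 282 ± 42.7 CPM with ADI-PEG20 and 189 ± 35.7 CPM without (difference 0.58, SE 0.13). Among the chemokines, Ccl7 averaged 16.0 ± 3.50 CPM with ADI-PEG20 and 9.96 ± 1.46 CPM without and did not overlap (difference 0.67, SE 0.16), and Ccl8 differed by 1.64 (SE 0.44), also with no overlap. Cx3cr1, the fractalkine receptor of monocytes, differed by 0.65 (SE 0.17) and passed without ADI-PEG20 replicate 1 (adjusted p = 0.0336). Its level in that library, 47.3 CPM, was the lowest with ADI-PEG20, so this pass is no added support.

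**Figure D3:**
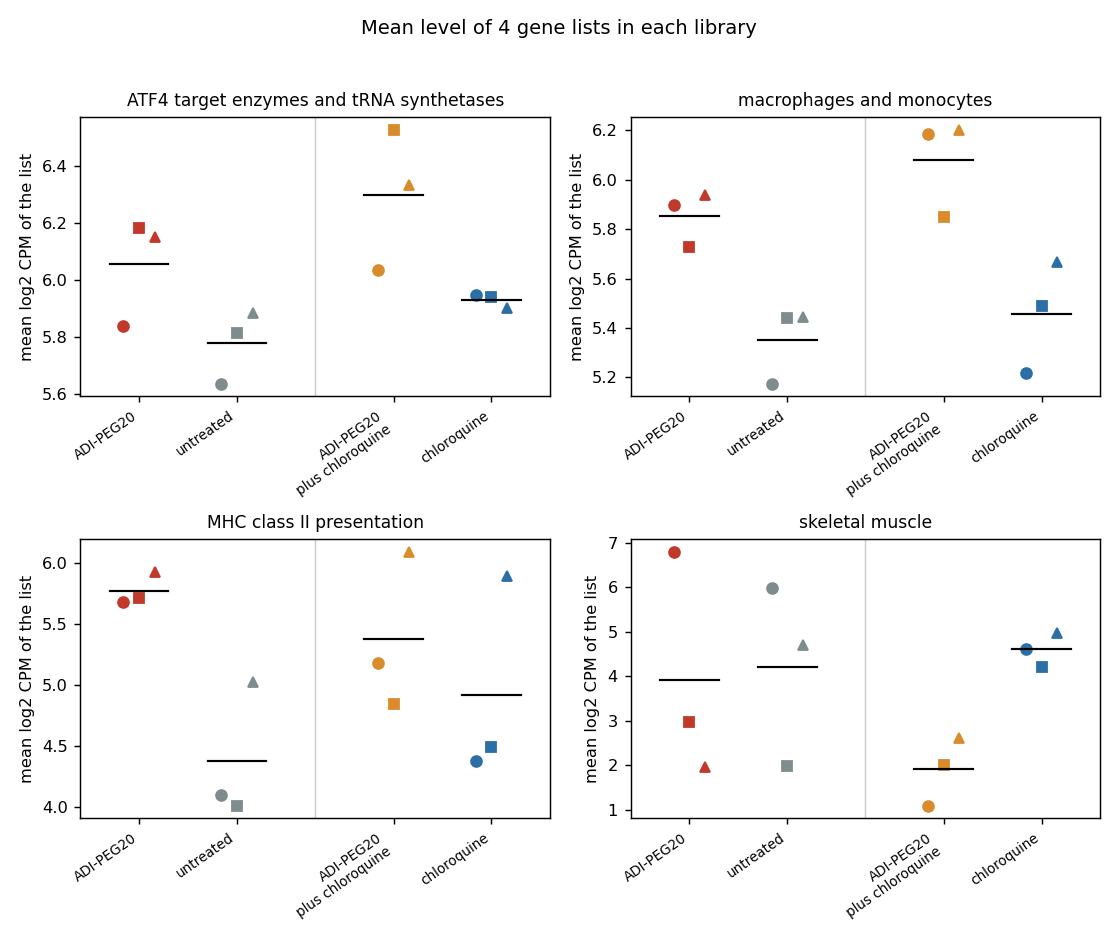
Mean log2 CPM of 4 gene lists in each library; circles, squares and triangles are replicates 1, 2 and 3, and bars are means of 3 libraries. The macrophage markers separate libraries with and without ADI-PEG20 in both chloroquine states, the MHC class II genes overlap, with chloroquine replicate 3 high, and the muscle markers spread widely within the ADI-PEG20 and untreated groups.

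MHC class II genes, which present peptides on macrophages, dendritic cells and B cells, lay above 0 in both chloroquine states for 10 of 10 members, and over both states also without ADI-PEG20 replicate 1. Their median was 0.97, with 1.57 without chloroquine and 0.44 with it, and 9 had an unadjusted p under 0.05. H2-Aa had 157, 242 and 297 CPM in ADI-PEG20 tumors and 145, 104 and 329 CPM in ADI-PEG20 plus chloroquine tumors, against 50.5, 30.7 and 121 CPM in untreated and 69.0, 66.2 and 256 CPM in chloroquine tumors. Chloroquine replicate 3 and, by less, untreated replicate 3 reached into the range with ADI-PEG20 (difference 1.33, SE 0.43, limma adjusted p = 0.314). H2-DMa, which helps load peptides, averaged 18 ± 3.08 CPM with ADI-PEG20 and 12.2 ± 3.84 CPM without. The 5 B and plasma cell markers measured summed to 18.7 to 57.4 CPM with ADI-PEG20 and 5.65 to 50.1 CPM without, and 9 dendritic cell markers to 480.0 to 732 CPM with ADI-PEG20 and 582 to 801 CPM without. Fscn1 made up most of the dendritic sum, with a mean of 492 CPM with ADI-PEG20 and 586 CPM without. It was the 1 of 9 below 0 (-0.26, SE 0.14), and the other 8 lay above 0, for a list median of 0.44. The part of these cells in the class II levels was not tested.

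Lysosomal genes lay above 0 in 31 of 36 cases, with a median of 0.19 and 10 at an unadjusted p under 0.05. The differences were small: Tpp1, a lysosomal peptidase, averaged 87.2 ± 13.6 CPM with ADI-PEG20 and 66.7 ± 3.59 CPM without (difference 0.37, SE 0.10), and Mitf, a factor that drives lysosomal genes, differed by 0.51 (SE 0.17), 0.19 without and 0.84 with chloroquine. Macrophages are rich in lysosomes, and the macrophage markers, whose sums are given above, were higher in the same libraries. Their part in this result was not tested.

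Of 16 genes of NRF2 and glutathione, 13 were above 0 over both states and 4 had an unadjusted p under 0.05. Without chloroquine 8 of the 16 lay above 0 (median 0.0094), and with it 15 did (median 0.38). These were not tested against each other. Gstm1, a glutathione transferase, had a lowest, median and highest level of 42.1, 47.4 and 50.3 CPM with ADI-PEG20, against 22.5, 29.8 and 38.9 CPM without, and no overlap (difference 0.70, SE 0.13, limma adjusted p = 0.102). Nqo1, a quinone reductase and standard NRF2 target, had 7.62, 26.7 and 37.3 CPM in ADI-PEG20 tumors and 18.1, 33.3 and 25.6 CPM in ADI-PEG20 plus chloroquine tumors, against 11.1, 7.80 and 16.8 CPM in untreated and 8.92, 5.92 and 14.0 CPM in chloroquine tumors. ADI-PEG20 replicate 1 was within the range without ADI-PEG20, and without that library Nqo1 passed (difference 1.47, SE 0.25, adjusted p = 0.0322), against 1.13 (SE 0.36, adjusted p = 0.308) over all 12. Since that library was the lowest with ADI-PEG20, the pass follows from leaving it out and is no added support.

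Genes of lipid uptake and storage lay on both sides. Besides Lpl, the lipoprotein Apoe averaged 1494 ± 185 CPM with ADI-PEG20 and 1042 ± 194 CPM without (difference 0.53, SE 0.14), and the nuclear receptor Pparg 4.99 ± 1.07 CPM with ADI-PEG20 and 2.85 ± 0.877 CPM without (0.83, SE 0.25). On the lower side were Lpin3, given above, and the fatty acid binding protein Fabp5, with 20.2 ± 3.99 CPM with ADI-PEG20 and 35.5 ± 9.61 CPM without (-0.79, SE 0.19, limma adjusted p = 0.188). The list median of 0.26 became -0.038 without ADI-PEG20 replicate 1, the library with the highest mean of adipocyte markers. Adipoq, the adipocyte hormone, had 10.8, 0.256 and 1.39 CPM in ADI-PEG20 tumors and 4.41, 0.471 and 1.0 CPM in ADI-PEG20 plus chloroquine tumors, against 0.639, 0.368 and 1.02 CPM in untreated and 0.801, 0.186 and 0.587 CPM in chloroquine tumors. Lpl passed with that library and without it (1.43, SE 0.24, adjusted p = 0.0317).

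Matrix genes lay mostly below 0 over both states, and the same 13 of 24 lay below 0 both without chloroquine and with it. Of 24 measured, 18 had a difference below 0 and 5 an unadjusted p under 0.05, all lower, and the median was -0.24. Without chloroquine 11 of the 24 lay above 0 (median -0.047), and with it 5 did (median -0.30). Tnc was the 1 that passed. Lum, the proteoglycan lumican, averaged 41.6 ± 5.23 CPM with ADI-PEG20 and 65.6 ± 17.3 CPM without (difference -0.62, SE 0.17, limma adjusted p = 0.233). Thbs2 and Col8a1 differed by -0.45 (SE 0.19) and -0.45 (SE 0.19). Fbn2, a fibrillin of elastic fibers that is not on this list, averaged 49.3 ± 23.7 CPM with ADI-PEG20 and 115 ± 27.1 CPM without (difference -1.31, SE 0.25), and passed without ADI-PEG20 replicate 1 (-1.53, adjusted p = 0.0150). That library had the highest Fbn2 with ADI-PEG20 (92.7 CPM), so the pass without it is no added support.

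The metalloproteinases split. Mmp15, a membrane-bound collagenase relative, had 62.2, 52.8 and 34.9 CPM in ADI-PEG20 tumors and 28.7, 29.0 and 24.1 CPM in ADI-PEG20 plus chloroquine tumors, against 57.7, 88.0 and 74.1 CPM in untreated and 108, 85.6 and 69.7 CPM in chloroquine tumors. The separation was complete with chloroquine and not without it (-0.57 without, -1.66 with), and the pooled difference was -1.12 (SE 0.21, limma adjusted p = 0.102). In the authors' deposited table Mmp15 was the 1 gene under an adjusted p of 0.05 for ADI-PEG20 plus chloroquine against chloroquine (log2 fold change -1.74, adjusted p = 0.00659). Mmp3, stromelysin 1, averaged 42.9 ± 13.8 CPM with ADI-PEG20 and 20.7 ± 11.8 CPM without (1.18, SE 0.34), and Mmp2, a gelatinase, 516 ± 89.6 CPM with ADI-PEG20 and 708 ± 161 CPM without (-0.45, SE 0.16).

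Genes of G2 and mitosis lay below 0 in 22 of 22 cases, by a median of -0.21, and in 16 of 22 in both chloroquine states (4217 of 16335 over all genes). Without ADI-PEG20 replicate 1, 2 of the 22 lay above 0. An unadjusted p under 0.05 was reached by 3 of the 22 (13.6%), all lower, against 4.36% of all genes lower and 9.89% in either direction. Plk1, the polo-like kinase of mitotic entry, had 23.8, 34.5 and 22 CPM in ADI-PEG20 tumors and 34.8, 25.6 and 30.4 CPM in ADI-PEG20 plus chloroquine tumors, against 38.4, 35.5 and 36.7 CPM in untreated and 47.6, 41.9 and 37.7 CPM in chloroquine tumors. The groups came close without overlapping (difference -0.49, SE 0.13, limma adjusted p = 0.221). Aurka and Aurkb, the Aurora kinases, differed by -0.32 (SE 0.13) and -0.35 (SE 0.15). Of 20 genes of G1 to S, 13 were below 0, with a median of -0.090.

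Skeletal muscle markers had the lowest median of all lists, -1.51, with 21 of 21 below 0 and 6 at an unadjusted p under 0.05. The median was -0.43 without chloroquine and -2.68 with it, which were not tested against each other. Acta1, skeletal muscle actin, had 669, 94.8 and 26.5 CPM in ADI-PEG20 tumors and 34.1, 57.5 and 29.1 CPM in ADI-PEG20 plus chloroquine tumors, against 342, 34.3 and 351 CPM in untreated and 464, 498 and 248 CPM in chloroquine tumors. ADI-PEG20 replicate 1 was the highest of all 12, and untreated replicate 2 the lowest without ADI-PEG20. The difference was -1.88 (SE 0.78, limma adjusted p = 0.453), and -3.11 (SE 0.32, adjusted p = 0.00147) without those 2 libraries, where 15 of the 21 markers passed as lower (1.29% of all genes passed there). For Acta1, and for the mean of the 21 markers, these 2 libraries ran most against the difference. The narrower spread of Acta1 without them follows from leaving them out and does not support the difference. For the same reason the 15 passes there are no added support. Without ADI-PEG20 replicate 1 alone, where 0.429% of all genes passed, Cacna1s, the calcium channel of muscle excitation, and Actn3 passed as lower. Cacna1s was highest with ADI-PEG20 in that library (39.2 CPM), so its pass is no added support.

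Genes of muscle precursors, the cells in which this Cre driver is active, lay below 0 over both states in 8 of 8 cases, with a median of -0.76. The same 5 of the 8 lay below 0 both without chloroquine and with it. Without chloroquine 3 lay above 0 (median -0.49), and with it 0 did (median -1.09). Chrna1, a subunit of the muscle acetylcholine receptor, averaged 61.0 ± 14.9 CPM with ADI-PEG20 and 101 ± 22 CPM without (difference -0.73, SE 0.17, limma adjusted p = 0.188). Cdh15, M-cadherin, averaged 261 ± 93.1 CPM with ADI-PEG20 and 447 ± 144 CPM without (-0.80, SE 0.26), and Myf5 25.2 ± 11.1 CPM with ADI-PEG20 and 36.9 ± 11.1 CPM without (-0.62, SE 0.29). Sarcoma cells of this origin and host muscle can both express these genes, and bulk RNA does not separate them. Smooth muscle genes were mixed, with 4 of 11 at an unadjusted p under 0.05 on the lower side (Cnn1, Des, Acta2 and Tagln) and Rgs5, a pericyte gene, at 0.53 (SE 0.21). Des is on the muscle precursor list too.

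**Figure D4:**
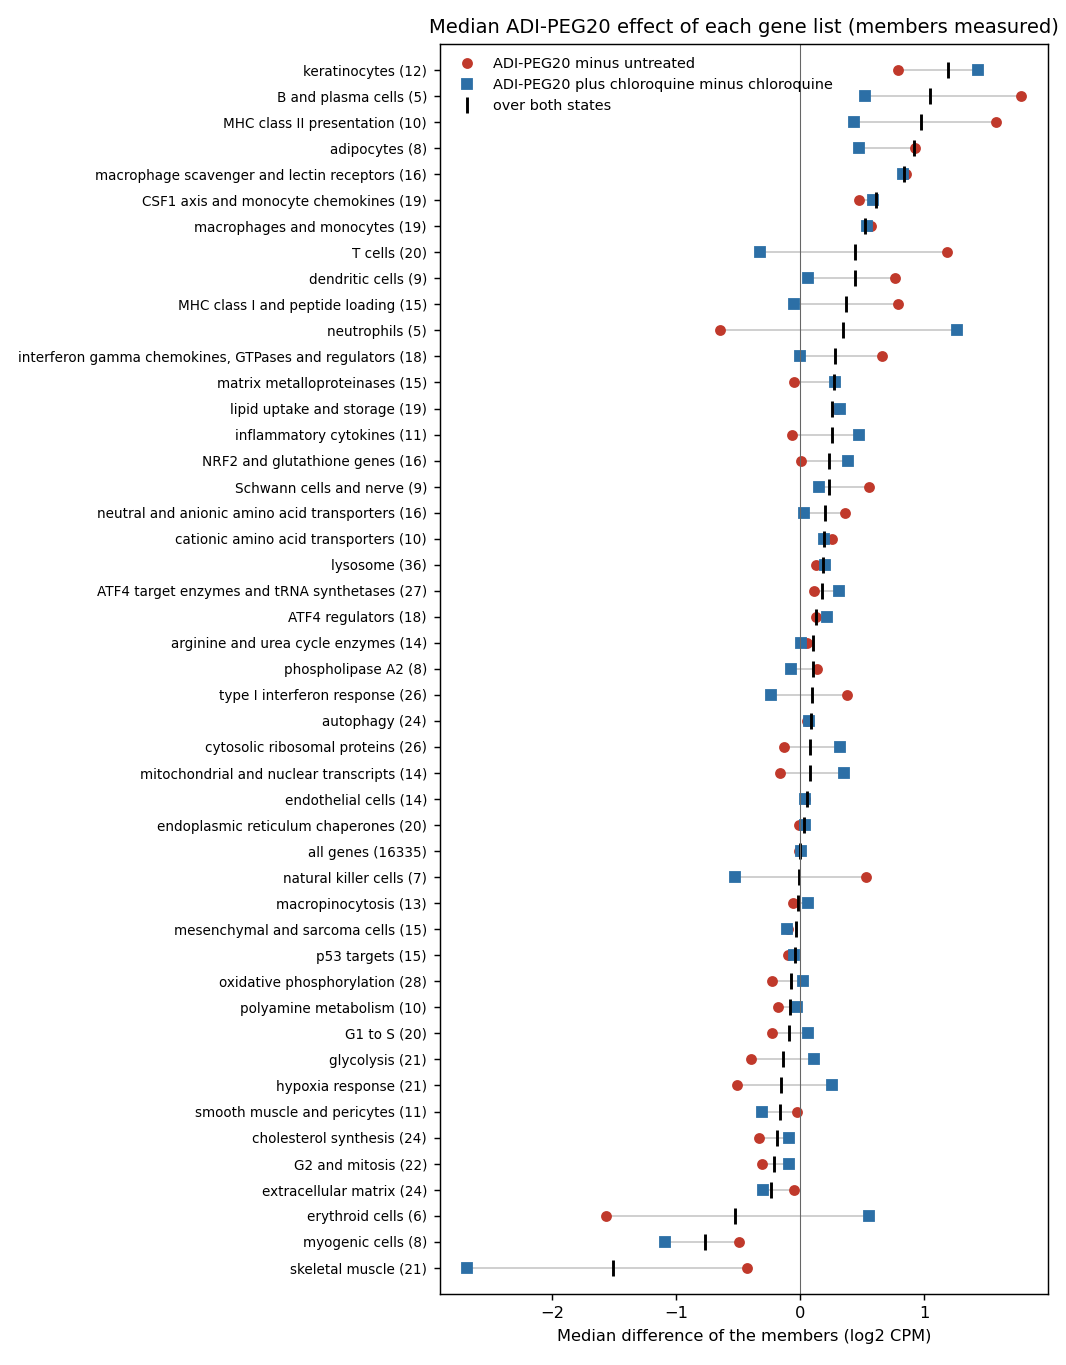
Median log2 difference of each gene list and of all genes, with the number of measured members in brackets; circles are ADI-PEG20 minus untreated, squares ADI-PEG20 plus chloroquine minus chloroquine, and black ticks the fit over both. Macrophage, CSF1 and lectin receptor lists sit near the same positive value in both states, while T cell, MHC class I, hypoxia and interferon lists lie on opposite sides of 0 or close to it in 1 state.

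The median of several lists changed sign between the chloroquine states, which was not tested for a list. All 26 type I interferon genes were above 0 without chloroquine and 1 of 26 was above 0 with it (medians 0.38 and -0.23). For 20 T cell genes, 19 above 0 without chloroquine and 4 with it, the medians were 1.18 without and -0.33 with chloroquine, for MHC class I and peptide loading 0.79 and -0.049, and for hypoxia response genes -0.51 and 0.26. Chloroquine replicate 3 held the highest mean of the 6 libraries without ADI-PEG20 for each of the first 3 lists. No gene passed the interaction test, which asks whether the state effects differ, and 696 (4.26%) had an unadjusted p under 0.05 there, 310 of them (1.9%) with the larger value with chloroquine and 386 (2.36%) with the smaller, so none of these contrasts between states is shown for a single gene.

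Across all genes, the effect without chloroquine and the effect with it were weakly related (Pearson r = 0.189 over 16335 genes, which are not independent). In each state alone no gene passed in limma, with 1357 (8.31%) at an unadjusted p under 0.05 for ADI-PEG20 against untreated and 1107 (6.78%) for ADI-PEG20 plus chloroquine against chloroquine. Of the 845 genes (5.17%) higher at that p without chloroquine, 608 (72.0%) were also above 0 with it, as were 51.4% of all genes, and of the 512 (3.13%) lower, 337 (65.8%) were also below 0. Read the other way, 366 of 508 genes higher with chloroquine (3.11% of all) and 403 of 599 lower (3.67%) had the same sign without it, or 72.0% and 67.3%, where 48.7% of all genes lay above 0 without chloroquine. Both effects had an unadjusted p under 0.05 on the same side for 99 higher genes (0.606%) and 54 lower genes (0.331%), and on opposite sides for 9 genes.

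**Figure D5:**
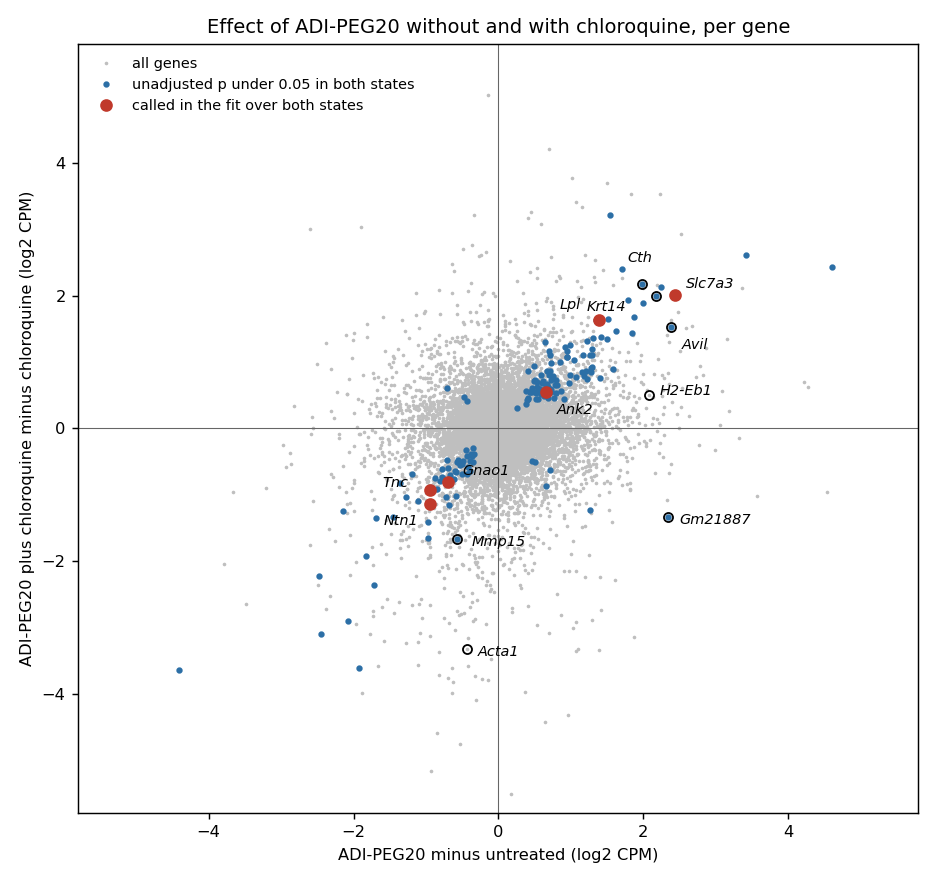
Log2 difference of each gene for ADI-PEG20 minus untreated (horizontal) and ADI-PEG20 plus chloroquine minus chloroquine (vertical); grey points are all 16335 genes, blue points have an unadjusted p under 0.05 in both states, red points are the 6 that passed over both. Slc7a3, Cth, Krt14 and Avil lie far out in the upper right, Gm21887 lies on opposite sides of 0, and Acta1 lies far below 0 on the vertical axis and near it on the horizontal.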

How the data were processed

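The authors deposited 1 merged table of log2 CPM for 12 libraries with fold changes and adjusted p-values of their own comparisons. The submitters' processing notes name mm10 as the build and, as tools, limma, edgeR, Salmon 0.8.2, featureCounts 1.4.6-p5 from Subread, STAR 2.5.1a, and bcl2fastq. In the deposited log2 CPM, 100% of values under 2000 reads were whole reads within 0.02 after removing an offset of 0.5 reads. The table had 16386 lines, of which 51 repeats of a gene were dropped. No gene had fewer than 85 reads in all, so the table lists no genes of very low count.

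Here limma 3.58.1 (R 4.3.3) was fitted to the deposited log2 CPM with ADI-PEG20 and chloroquine as terms. A second fit with 4 group means gave the effect in each state and their difference. p-values were adjusted by Benjamini-Hochberg over 16335 genes. Tables were handled in Python 3.11.15 with pandas 2.3.3 and NumPy 2.4.6. SDs are of CPM over 6 libraries, and a fold is the geometric one from log2 CPM. Tested on simulated data with 16335 genes, the fit over both states recovered 49% of 100 genes changed by 1 on the log2 scale. It recovered 86% of 100 genes changed by 2, with 8 false calls. Whether these shares hold for the measured libraries, some of which stood apart, was not tested. No pair of replicates agreed within sampling noise (chi-square per degree of freedom 24.7 to 279), so none was treated as a duplicate deposit. This does not show that they are separate animals.

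Named genes were the 15 in each direction with the smallest p among those of the same sign in both states, the 4 with the smallest p in each list, the 4 with the smallest interaction p, the deleted genes and 3 arginine transporters; other list members named were chosen after their values were seen. The 46 gene lists and their members were chosen with earlier results of these data known. Alternatives covered the model, weights, scaling, filter and libraries left out. Gene positions are from GENCODE (GRCm38) and promoters from RefSeq.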

Additional observations from a re-analysis of the deposited data

Results flagged for a closer look

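Chance alone would put about 1 in 20 groups of 6 libraries outside the 95% critical value of 0.625 for the gap of the extreme library over the range, and 20 of 282 groups lay outside it, among genes and list means named here. No cause was tested for any of them.

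ADI-PEG20 replicate 1 was the extreme library with ADI-PEG20 for Cacna1s at 5.30 log2 CPM (next 1.90), Slc43a1 at 3.36 (next 1.8), Slc1a5 at 7.09 (next 6.57), Nxn at 7.09 (next 6.77) and Cx3cr1 at 5.56 (next 6.40). The same library was extreme in the list means of skeletal muscle at 6.8 log2 CPM (next 2.98), NRF2 and glutathione genes at 5.38 (next 5.89) and cholesterol synthesis at 4.04 (next 4.63). Replicate 2 of ADI-PEG20 plus chloroquine stood low in 3 immune list means, T cells at 0.332 log2 CPM (next 1.15), MHC class I and peptide loading at 5.62 (next 6.36) and interferon gamma chemokines, GTPases and regulators at 4.72 (next 5.26). Ms4a6d was 5.20 log2 CPM in ADI-PEG20 plus chloroquine replicate 1 (next 4.53).

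Among libraries without ADI-PEG20, untreated replicate 2 stood low for Acta1 at 5.10 log2 CPM (next 7.96), Tmsb10 at 8.18 (next 8.85) and the mean of endoplasmic reticulum chaperones at 6.34 (next 6.67). Untreated replicate 1 stood low for Trib3 at 1.63 log2 CPM (next 3.58) and Chac1 at 2.59 (next 3.46), and untreated replicate 3 for Aurka at 4.71 (next 4.99). Chloroquine replicate 3 stood high for H2-DMa at 4.31 log2 CPM (next 3.56) and for the mean of dendritic cell markers at 3.51 (next 2.41).

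Gm21887 went opposite ways: all ADI-PEG20 libraries lay above all untreated ones, and all ADI-PEG20 plus chloroquine libraries below all chloroquine ones. The state effects differed by -3.68 on the log2 scale (limma interaction adjusted p = 0.825), so the difference did not pass its test.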

How the results depend on the processing

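Genes called higher and lower, 3 and 3 as reported, became 6 and 4 without the chloroquine term, 0 and 0 with 4 group means, 127 and 156 with library quality weights, and 73 and 138 without ADI-PEG20 replicate 1 and untreated replicate 2. With replicate number as a block, the counts were 25 higher and 12 lower; same-numbered libraries deviated together more than others (median correlation 0.097 against -0.039) but not in every pair (-0.05 to 0.20). All 3 pairs exceeded 0.1 between ADI-PEG20 plus chloroquine and chloroquine, a hint from the data, and the labels give no pairing, so the block was not used. Leaving out 1 library at a time gave 0 to 26 higher and 0 to 44 lower, 128 to 443 genes with libraries apart, 1127 to 2368 at an unadjusted p under 0.05 and 0 to 1 called in each state. Library quality weights gave 2798 genes at an unadjusted p under 0.05 and 15 called with chloroquine. Without the 2 libraries named there were 2451, 22 called with chloroquine and 680 with libraries apart. Fewer libraries can only keep or raise the count of genes with libraries apart, so the direction of that change carries no information. The median of 8 phospholipase A2 genes, 0.11 as reported, was 0.011 to 0.17 with libraries left out. Sign changes occurred for Gm21887 (-0.084 with library quality weights, -0.18 to 0.84 with libraries left out), Atf4 (-0.016 without ADI-PEG20 plus chloroquine replicate 2 and -0.0027 without chloroquine replicate 3, otherwise up to 0.14) and P2rx5 (0.014 without chloroquine replicate 1, otherwise down to -0.42), and in none of the other 2179 of 2184 named-gene values. The cause was not tested.

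The fit recovered 49% of simulated log2 changes of 1 in the comparison over both states, so a gene that did not pass is not shown to be unaltered, and at 0.0320 to 0.0794 CPM a read, markers near 0 rest on few reads. Read counts carry counting error only and do not include differences between tumors.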

Other observations

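Further gene groups had small median differences with ADI-PEG20 over both states. Of 24 genes of cholesterol synthesis, 22 had a difference below 0, 14 of them in both chloroquine states, with a median of -0.19, and Srebf2, a factor that drives them, differed by -0.34 (SE 0.11); without ADI-PEG20 replicate 1, 8 of the 24 lay above 0. Of 28 genes of oxidative phosphorylation, 18 were below 0 and 5 had an unadjusted p under 0.05, all lower, with a median of -0.072, and 0.017 without ADI-PEG20 replicate 1. Of 10 genes of polyamine metabolism, which starts from arginine and ornithine, 8 were below 0 and none had an unadjusted p under 0.05 (median -0.083). Of 24 autophagy genes 16 were above 0 (median 0.084), and of 20 chaperones of the endoplasmic reticulum 11 were (median 0.029).

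Some lists had medians of opposite sign in the chloroquine states, and these were not tested against each other. The median over 5 neutrophil markers was -0.65 without chloroquine and 1.26 with it, and over 6 erythroid markers -1.56 and 0.55. Among the neutrophil markers, Cxcr2 had 0 to 54 reads per library, S100a8 2 to 44 and S100a9 6 to 82. Csf3r had more, at 218 to 906. The neutrophil medians therefore rest largely on few reads. Cytosolic ribosomal protein genes had medians of -0.13 and 0.32, and 14 mitochondrial and nuclear transcripts, which can mark RNA quality, -0.16 and 0.35. The genes with the smallest interaction p after Gm21887 were Ampd3 (difference of the state effects 0.98), Mest (-1.34) and P2rx5 (-1.81), each with a limma adjusted p of 0.825.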
